A study of Mus musculus with 36 samples.

Results

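The 6 genes described here handle cellular zinc in fibroblasts: the metallothioneins Mt1 and Mt2, the zinc sensor Mtf1, the zinc exporter Slc30a1 and the zinc importers Slc39a10 and Slc39a14. They were taken by gene symbol from a table of 39017 genes, and each of the 6 passed the filter on low counts that left 14439 genes for testing. Mt2 was chosen by its measured fall in co-culture, so its difference from mono-culture is given as a description with no test. The samples were pancreatic fibroblasts of C57BL/6 mice, either in mono-culture or grown for 48 h with a tumour line that carried GFP and then sorted from it by that label. The tumour lines were 7 sub-clones named E, H, K, M, N, T and V, and KPC1, whose name the labels do not explain. Each of the 9 groups held 4 libraries of polyadenylated RNA, 36 in all. The labels do not say whether mono-culture fibroblasts were sorted too, so sorting and co-culture cannot be told apart, and they do not say whether the 4 libraries of a group came from separate cultures, so p-values measure the spread between these libraries, which may be technical.

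Metallothioneins are small, cysteine-rich proteins that bind zinc and copper and hold a reserve of exchangeable zinc. Mtf1 encodes metal-responsive transcription factor MTF-1, which binds metal response elements when zinc is plentiful and drives transcription of Mt1, Mt2 and Slc30a1. Slc30a1 (ZnT1) moves zinc out of the cell, Slc39a10 (ZIP10) moves zinc in across the plasma membrane, and Slc39a14 (ZIP14) imports zinc, iron and manganese. Transcription of Slc39a10 is known to be held down by MTF-1, metallothionein genes also respond to glucocorticoids, and Slc39a14 is induced in inflammation.

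On mouse assembly GRCm38 (mm10), Mt2 (ENSMUSG00000031762, chr8:94172664-94173568, plus strand) and Mt1 (ENSMUSG00000031765, chr8:94179082-94180327, plus strand) were neighbours, with 5513 bases between them. Their coding sequences are shown because reads of near-identical copies could be shared between genes. Each had 183 bases, with 20 TGC or TGT (cysteine) codons among 61, and they are printed without the stop codon, with capitals at the 38 positions where they differ.
Mt1 coding: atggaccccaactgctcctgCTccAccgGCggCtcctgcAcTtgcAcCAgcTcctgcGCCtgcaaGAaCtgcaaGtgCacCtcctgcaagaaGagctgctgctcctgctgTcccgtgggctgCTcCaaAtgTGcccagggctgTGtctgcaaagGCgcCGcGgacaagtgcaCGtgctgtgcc
Mt2 coding: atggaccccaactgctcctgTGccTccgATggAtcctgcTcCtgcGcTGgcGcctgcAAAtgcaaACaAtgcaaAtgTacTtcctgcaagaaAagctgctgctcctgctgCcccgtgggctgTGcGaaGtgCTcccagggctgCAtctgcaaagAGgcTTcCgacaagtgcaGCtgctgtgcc
The coding sequences were identical at 79.2% of positions. The longest stretch shared by any pair of their annotated transcripts was 20 bases, shorter than the 76-base reads, so a full-length read fits 1 of the genes.

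The 250 bases upstream of the RefSeq start (GRCm38.p6) were searched on both strands for the core of a metal response element, written as TGCACNC or TGCGCNC. A position can match only 1 of these forms. The Mt2 window held 3 matches and the Mt1 and Slc30a1 windows 1 each, in capitals in the sequences printed here. At least 1 match stood in 21.4% of all 32851 windows of that length and at least 3 in 1.26%. With the 50 bases after the start included, Mt2 held 4 matches, Mt1 3 and Slc30a1 2, and at least 3 stood in 1.97% of windows and at least 2 in 7.11%.
Mt2 upstream (chr8:94172368-94172617, plus strand): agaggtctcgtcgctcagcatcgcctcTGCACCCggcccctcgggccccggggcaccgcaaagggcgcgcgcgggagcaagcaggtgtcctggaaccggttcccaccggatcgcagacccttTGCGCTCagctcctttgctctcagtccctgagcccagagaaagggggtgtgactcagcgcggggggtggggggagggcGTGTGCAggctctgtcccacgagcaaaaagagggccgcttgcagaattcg
Mt1 upstream (chr8:94178839-94179088, plus strand): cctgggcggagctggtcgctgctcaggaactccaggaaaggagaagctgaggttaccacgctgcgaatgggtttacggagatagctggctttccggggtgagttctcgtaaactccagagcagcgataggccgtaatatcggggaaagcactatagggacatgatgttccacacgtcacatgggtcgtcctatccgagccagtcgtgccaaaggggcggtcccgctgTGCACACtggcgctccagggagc
Slc30a1 upstream (chr1:191906531-191906780, plus strand): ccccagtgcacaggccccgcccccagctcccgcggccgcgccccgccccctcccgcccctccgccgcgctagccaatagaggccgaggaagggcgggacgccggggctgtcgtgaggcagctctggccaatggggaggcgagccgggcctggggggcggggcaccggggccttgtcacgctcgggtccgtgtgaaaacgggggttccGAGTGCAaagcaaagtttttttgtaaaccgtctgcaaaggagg
The Mtf1 window and both Slc39a10 windows had 0 matches. The Slc39a10 windows (chr1:46925777-46926026 and chr1:46853619-46853868, minus strand) do not adjoin the GENCODE start of the gene at 46892852, so that start was not searched. Which starts these fibroblasts used was not examined, so each count holds for its window only. A match is a run of letters, not a measured binding site.

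Library totals ran from 12532122 to 21985538 counts. The 10 fibroblast markers (Col1a1, Dcn, Pdgfra and others) were detected in each group, with summed levels of 21230 to 23080 CPM (counts relative to the library total, scaled by TMM) in mono-culture and 10900 to 32100 in co-culture. By line the median sum was highest with clones K (27230 CPM) and M (26610) and lowest with KPC1 (15060). It was 16880 with clone T, 16920 with H, 17120 with V, 22730 with E and 23290 with N. The 11 epithelial markers, listed as marks of tumour cells, summed to 1.06 to 1.82 CPM in mono-culture, with Cldn4, Cldn6 and Esrp1 at 0. In co-culture they summed to 19.95 to 862 CPM, where Cldn4 was at 0 in 7 of the 8 lines and Epcam in 4. Esrp1 was at 0 with clones H, K, M and N and with KPC1. From 6 (clone M) to 9 (clones K and N) of the 11 were detected by line, so the sum rests on part of the list. Leukocyte markers, 5 of 6 of them in the table, and 4 endothelial markers summed to at most 16.2 and 6.33 CPM in any library. The part of carried-over tumour RNA in the results was not tested. Within groups, the summed epithelial level had a correlation of -0.02 with Mt1, 0.05 with Mt2, 0.20 with Slc39a10, 0.34 with Slc39a14, -0.39 with Mtf1 and -0.36 with Slc30a1 over the 36 libraries. Over the means of the 8 lines it had one of -0.71 with Mt1, -0.28 with Mt2, 0.30 with Slc39a10, 0.49 with Slc39a14, -0.84 with Mtf1 and 0.03 with Slc30a1. In bulk RNA, fewer cells of a kind and less RNA per cell cannot be told apart.

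The first comparison set each co-culture against mono-culture. Mt1 was lower and Slc39a10 higher with each of the 8 lines, Slc39a14 was higher with 6 of them, and neither Mtf1 nor Slc30a1 passed the test with any line. Leaving out Mt2, 22 of 40 gene-by-line values passed, 8 lower and 14 higher. Over all genes tested, 41.8% of such values were called, 20.4% lower and 21.4% higher. By line the share of genes called was 19.1% with clone K, 23% with clone M, 32% with clone E, 39% with clone N, 49.8% with clone T and 54.2% with clone H, and it was highest for clone V (58.3%) and KPC1 (59%). The 8 comparisons share the 4 mono-culture libraries.

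**Figure D1:**
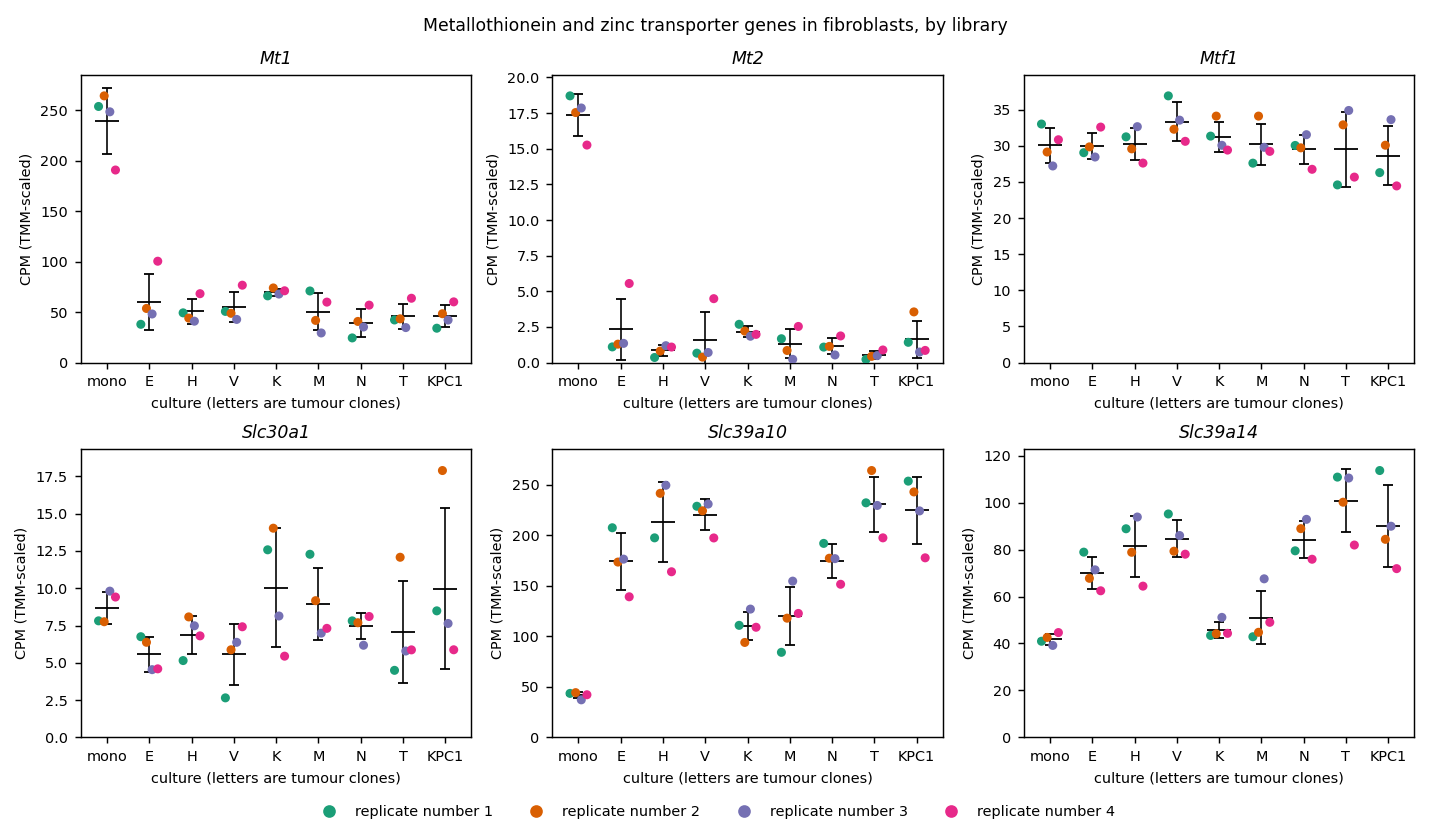
Level of each of the 6 genes in the 36 libraries, as TMM-scaled CPM on linear axes that start at 0. Points are libraries, coloured by replicate number, and bars are the group mean ± SD (n = 4). Mt1 was at 191 CPM or more in mono-culture and at 100.5 or less in co-culture, and Slc39a10 at 44.2 or less in mono-culture and at 84.2 or more in co-culture, while Mtf1 overlapped throughout.

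Mt1 was the most abundant of the 6 in mono-culture per unit of length, at 455 ± 58.5 RPKM (RPKM are reads scaled to gene length and library total, SD, n = 4). The 4 mono-culture libraries held 254, 264, 249 and 191 CPM. With clone E the level was 38.0, 53.7, 48.2 and 100.5 CPM, with replicate 4 the highest of the 32 co-culture libraries. No co-culture library reached the lowest of mono-culture.

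Fibroblasts grown with clone H had 49.3, 44.1, 41.1 and 68.3 CPM of Mt1. Those with clone V had 50.7, 48.8, 42.8 and 76.7 CPM. Clone K gave 66.2, 74.0, 68.0 and 71.2 CPM, the highest mean (69.8 ± 3.47 CPM, SD, n = 4) and the tightest set. The other 4 lines lay lower on average, with wider spread. The values were 71.0, 41.8, 29.4 and 59.96 CPM with clone M. They were 24.5, 40.8, 35.3 and 57.0 CPM with clone N, the line with the lowest mean (39.4 ± 13.5 CPM, SD, n = 4). Clone T gave 42.3, 43.4, 34.7 and 63.8 CPM, and KPC1 34.1, 48.5, 42.2 and 60.2 CPM, so that these lines overlapped each other and clone N.

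Averaged over the 8 lines, Mt1 was 4.65-fold lower than in mono-culture (log2 difference -2.22, SE 0.169, 95% interval -2.56 to -1.87, edgeR adjusted p = 1e-11). The drop ran from -1.78 on the log2 scale with clone K (adjusted p = 2.8e-05) to -2.60 with clone N (adjusted p = 4e-08). Its rank was 123rd from the lowest of 14439 genes. Of these genes, 3.19% were called lower with each of the 8 lines and 4.17% had the 32 co-culture libraries below those of mono-culture, as Mt1 did.

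Mt2 was present in mono-culture at 35.5 ± 3.06 RPKM (SD, n = 4), far under Mt1. Mono-culture libraries held 18.7, 17.5, 17.9 and 15.3 CPM, from 235 to 340 counts. Its co-culture counts were 4 to 87, so single values carry a large counting error. The fall that led to its choice was seen in each of the 32 co-culture libraries.

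With clone E, Mt2 stood at 1.10, 1.29, 1.35 and 5.55 CPM. With clone V it stood at 0.661, 0.385, 0.708 and 4.485 CPM. In both lines replicate 4 was set apart from the other three libraries. With clone K the values were 2.69, 2.21, 1.85 and 1.98 CPM. With KPC1 they were 1.42, 3.56, 0.739 and 0.855 CPM. Clone K was even across libraries, whereas KPC1 replicate 2 stood above the rest of its group. The levels were 0.359, 0.808, 1.19 and 1.09 CPM with clone H. They were 1.67, 0.850, 0.229 and 2.54 CPM with clone M. Clone N gave 1.09, 1.14, 0.537 and 1.87 CPM, which overlapped both. Clone T was the lowest on average, with 0.225, 0.439, 0.491 and 0.885 CPM.

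As a description, the fitted Mt2 level was 13.2-fold lower than mono-culture over the 8 lines (log2 difference -3.72, SE 0.333), from 7.57-fold with clone E to 33.5-fold with clone T. Its rank was 28th from the lowest of 14439 genes. Single libraries moved some of these values: without clone V replicate 4 the difference for clone V went from -3.50 to -4.88, without clone E replicate 4 that for clone E went from -2.92 to -3.80, and without KPC1 replicate 2 that for KPC1 went from -3.40 to -4.08. The share of Mt2 relative to Mt1 uses the values by which Mt2 was chosen, so it is a description only. Per unit of length, Mt2 amounted to 7.84% ± 0.601 of Mt1 in mono-culture (SD, n = 4). In co-culture that share averaged from 1.17% ± 0.444 with clone T to 3.94% ± 2.94 with KPC1 (SD, n = 4 each), where the highest library, at 7.88%, lay within the mono-culture range of 7.13% to 8.59%. The other metallothionein genes in the table, Mt3 and Mt4, had at most 4 and 1 counts in any library and were not tested.

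**Figure D2:**
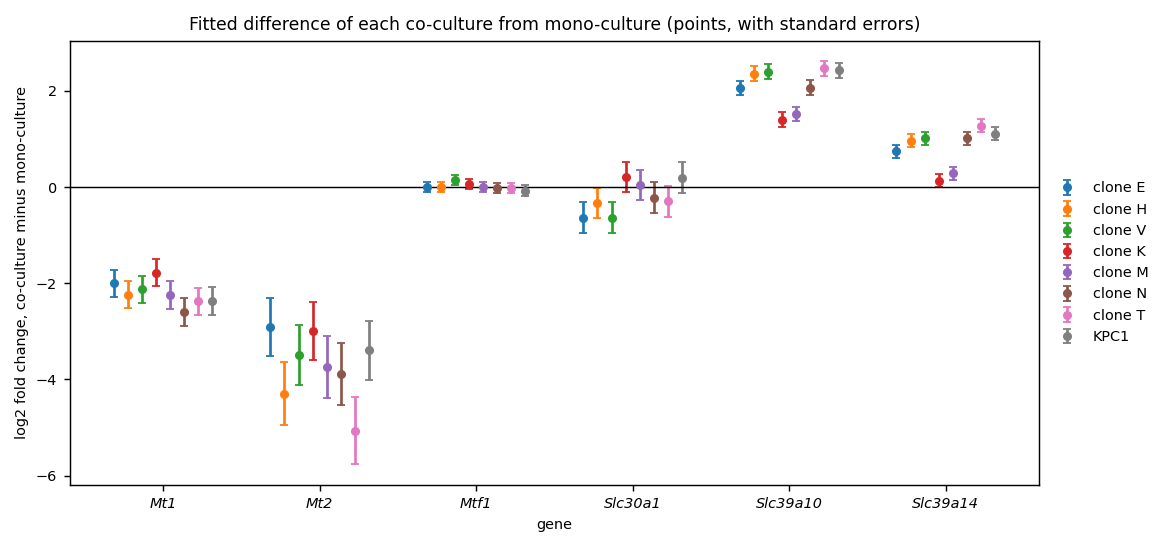
Fitted log2 fold change of each gene in each co-culture against mono-culture (edgeR, n = 4 libraries a group). Points are lines and bars are standard errors. Mt1 lay between -2.60 and -1.78 and Slc39a10 between 1.40 and 2.47, Mtf1 stayed close to 0, and the points of Mt2, which was chosen for this fall, ran from -5.07 to -2.92.

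Mtf1 (ENSMUSG00000028890, chr4:124802104-124849800, plus strand), the transcription factor that senses zinc, had 33.01, 29.1, 27.2 and 30.8 CPM in mono-culture and a range of 24.45 to 36.9 CPM in co-culture. The groups overlapped in each comparison. Its mean difference from mono-culture was 0.01 on the log2 scale (SE 0.0787, 95% interval -0.15 to 0.17, edgeR adjusted p = 0.92), and single lines ran from -0.07 with KPC1 to 0.15 with clone V. The activity of the protein was not measured.

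Slc30a1 (ENSMUSG00000037434, chr1:191906767-191913247, plus strand), the exporter, was the least abundant of the 6 genes per unit of length in both mono-culture (1.73 ± 0.230 RPKM, SD, n = 4) and co-culture (median 1.36 RPKM). Mono-culture libraries had 7.81, 7.75, 9.81 and 9.41 CPM. Those of co-culture ran from 2.64 CPM in clone V replicate 1 to 17.9 CPM in KPC1 replicate 2, and 21 of 32 lay below and 5 above the mono-culture libraries. The mean log2 difference was -0.21 (SE 0.235, 95% interval -0.69 to 0.27, edgeR adjusted p = 0.47). The lowest were clone V at -0.64 (SE 0.323, adjusted p = 0.088) and clone E at -0.64 (SE 0.323, adjusted p = 0.14), whose 4 libraries each lay below mono-culture. When each fit held only the 8 libraries compared, clones E and V passed, with adjusted p of 0.0094 and 0.050. Differences within these intervals were not detectable at this depth and spread.

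Slc39a10 (ENSMUSG00000025986, chr1:46807544-46892852, minus strand), an importer, had 43.5, 44.2, 37.1 and 42.1 CPM in mono-culture. With clone T it had 232, 264, 229.7 and 198 CPM. With KPC1 it had 254, 243, 224 and 178 CPM. These lines had the highest means, 231 ± 27.2 and 224.8 ± 33.6 CPM (SD, n = 4 each). Clone V gave 229, 224, 231 and 197.5 CPM. Clone H gave 198, 242, 249.7 and 164 CPM. In each of these 4 lines the lowest library was replicate 4.

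Levels were intermediate with clone N, at 192, 177, 177 and 152 CPM. They were 208, 174, 176.5 and 139 CPM with clone E, nearly the same mean. The lowest co-cultures were clones M and K. Clone M had 84.2, 118, 155 and 123 CPM. Clone K had 111, 93.95, 127 and 109 CPM, still above each mono-culture library.

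Over the 8 lines Slc39a10 was 4.25-fold higher than in mono-culture (log2 difference 2.09, SE 0.131, 95% interval 1.82 to 2.35, edgeR adjusted p = 9e-14, higher in 32 of 32 libraries). The rise ran from 2.64-fold with clone K (adjusted p = 5.1e-08) to 5.53-fold with clone T (adjusted p = 3.7e-13). It was the 363rd highest fold change of 14439. Of all genes tested, 3.42% were called higher with each of the 8 lines and 3.57% had the 32 co-culture libraries above mono-culture. Per unit of length the median went from 8.12 RPKM in mono-culture to 33.4 RPKM in co-culture.

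Slc39a14 (ENSMUSG00000022094, chr14:70303469-70351425, minus strand), the importer that also carries iron and manganese, started from 40.9, 42.6, 39.15 and 44.6 CPM in mono-culture. With clone T it had 110.9, 100.2, 110.5 and 81.9 CPM. With KPC1 it had 114, 84.4, 90.0 and 71.9 CPM. Both sets lay clear of mono-culture. So did clone V, at 95.2, 79.3, 86.0 and 78.0 CPM. Clone N had 79.5, 88.9, 92.9 and 75.9 CPM. Clone H had 88.9, 78.85, 93.9 and 64.4 CPM. Clone E, at 78.9, 67.8, 71.4 and 62.4 CPM, was the lowest of the 6 lines whose libraries did not overlap mono-culture.

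The remaining lines overlapped it. Clone M had 42.85, 44.7, 67.5 and 49.0 CPM of Slc39a14, with replicate 3 alone well above the others. Clone K had 43.4, 44.1, 51.1 and 44.3 CPM. The log2 difference from mono-culture was 0.13 with clone K (SE 0.135, 95% interval -0.15 to 0.40, edgeR adjusted p = 0.56) and 0.29 with clone M (SE 0.135, 95% interval 0.01 to 0.56, adjusted p = 0.13). In the other 6 lines it ran from 0.75 with clone E (adjusted p = 8e-05) to 1.27 with clone T (adjusted p = 1e-08). In all, 28 of 32 co-culture libraries stood above the mono-culture libraries, and the mean difference was 1.76-fold (log2 0.82, SE 0.108, adjusted p = 2.1e-07).

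The second comparison asked whether the level depended on which tumour line the fibroblasts had met, within the 32 co-culture libraries. The importers differed among lines (edgeR F-test over 7 contrasts, adjusted p = 1e-07 for Slc39a10 and 3.3e-08 for Slc39a14), as did 72% of all genes tested. The spread of line means was 1.07 for Slc39a10 and 1.13 for Slc39a14 on the log2 scale. Mt1 (adjusted p = 0.17), Mt2 (0.10), Slc30a1 (0.080) and Mtf1 (0.61) did not pass. For Mt2 the adjusted p was 0.0084 without clone V replicate 4. For Slc30a1 the adjusted p was 0.020 without clone T replicate 2, 0.030 without clone K replicate 4 and 0.036 without KPC1 replicate 4. DESeq2 called both, at 0.032 for Mt2 and 0.044 for Slc30a1. With replicate number as a block in the edgeR fit, Mt1 (0.026) and Mt2 (0.046) passed.

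Of the 28 pairs of lines, 14 differed for Slc39a10 and 14 for Slc39a14, against 27.5% of such values over all genes. In both genes 12 of the 14 set clone K or clone M against another line, and each of the 12 pairs of that kind was called. The share of all genes called in those 12 pairs was not counted, so the split is not read as particular to the importers. For Slc39a10 the call between clones M and N was lost without clone M replicate 1 (adjusted p = 0.063). The other calls of Slc39a10, clones E and N against KPC1 (0.043 and 0.049), were lost under several settings and left-out libraries, as with limma on log2(RPKM + 1) at 0.057 and 0.063. By mean level Slc39a10 ran in the order clone T, KPC1, V, H, N and E, then M and K. Neighbours within the first 6 did not differ (adjusted p from 0.13 to 1), and clones M and K did not differ either (log2 0.12, adjusted p = 0.76). Further apart in the first 6, V against N (0.059), E against V (0.059) and E against T (0.066) were not called. DESeq2 called them, at 0.049, 0.045 and 0.045. The number of pairs called for Slc39a10 went from 12 to 20 as single libraries were left out. The step from clone E to clone M was 0.54 (adjusted p = 0.016), but the adjusted p was 0.091 without clone E replicate 1, 0.097 without clone M replicate 1 and 0.074 with only the libraries compared in the fit. The wider gap from clone K to clone T was 1.07 (adjusted p = 1.8e-06).

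For Slc39a14 the order was clone T, KPC1, V, N, H and E, then M, K and mono-culture. Clone E and clone M differed by 0.46 on the log2 scale (adjusted p = 0.025), a call lost without clone E replicate 1 (adjusted p = 0.11) or without clone M replicate 1 (0.11), replicate 2 (0.082) or replicate 4 (0.052), and with only the libraries compared in the fit (0.056). Other neighbours in that order did not differ (adjusted p from 0.22 to 0.97). The 2 calls without clones K or M were clone E against clone T (-0.52, adjusted p = 0.013) and against KPC1 (-0.36, 0.030). The call against KPC1 was lost in 5 refits, as with only the libraries compared (0.066) and without KPC1 replicate 1 (0.19). Clone K lay 1.14 below clone T (adjusted p = 2e-07). For the other 4 genes at most 2 of 28 pairs were called, a count that went from 0 to 5 as single libraries were left out, so no pair is described.

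**Figure D3:**
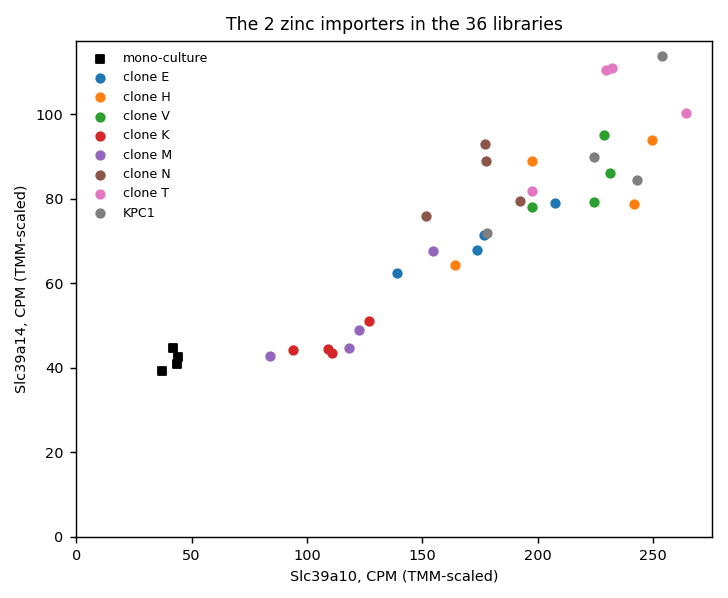
Slc39a14 against Slc39a10 in the 36 libraries, both in TMM-scaled CPM on linear axes from 0, coloured by group with mono-culture as squares. Libraries of clones K and M lay at 42.85 to 67.5 CPM of Slc39a14, overlapping mono-culture, and at 84.2 to 155 CPM of Slc39a10. The means of the other lines were higher on both axes, with single libraries overlapping those of clone M.

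The importers varied together. The means of the 8 lines had a Pearson correlation of 0.96 on the log2 scale (Spearman 0.98), and deviations of the 36 libraries from their own group mean one of 0.76. Mt1 deviated the other way, with within-group correlations of -0.79 to Slc39a10 (Spearman -0.62) and -0.71 to Slc39a14 (Spearman -0.64). It went along with Mt2 (0.65, Spearman 0.55). Mtf1 had correlations of -0.30 with Mt1 and 0.29 with Slc39a10. Slc30a1 had correlations of 0.02 with Mt1, 0.02 with Slc39a10, 0.38 with Mt2 and -0.22 with Slc39a14. These are descriptions, since libraries share depth, scaling and replicate number. Depth itself had within-group correlations of -0.43 with Mt1 and 0.36 with Slc39a10.

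Replicate number moved with these deviations. Replicate 4 held the highest Mt1 in 6 of the 8 lines and the highest Mt2 in 5, and the lowest Slc39a10 and Slc39a14 in 6 lines each. On average its co-culture libraries stood 0.46 above their group mean for Mt1 and 0.80 above for Mt2, and at -0.19 for Slc39a10 and -0.18 for Slc39a14, on the log2 scale. In mono-culture replicate 4 had the lowest Mt1. The labels do not say what the numbers stand for. Without the 9 libraries numbered 4, the number of calls against mono-culture stayed at 22 of 40. The F-test among lines then called 5 of the 6 genes, with adjusted p of 0.0097 for Mt1, 0.0026 for Mt2 and 0.037 for Slc30a1. The share of all genes called was not counted in that fit and was 72% with the 36 libraries. The number is therefore not read as a result about these genes.

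**Figure D4:**
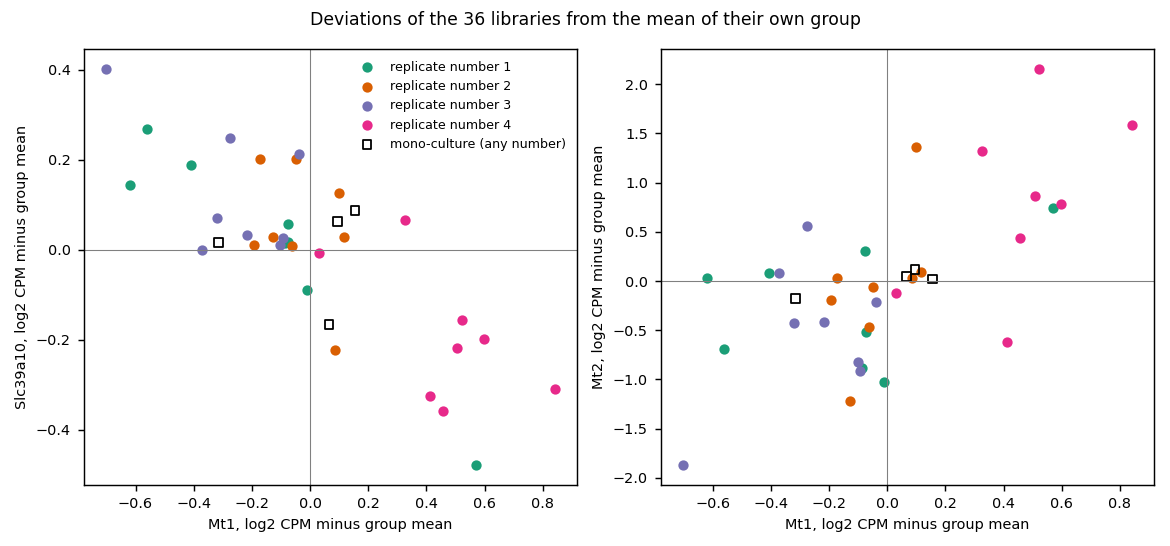
Deviation of Slc39a10 (left) and Mt2 (right) from the mean of the own group against that of Mt1, in log2 CPM, for 36 libraries coloured by replicate number, with mono-culture as open squares. On the left the points fall from upper left to lower right (r = -0.79) and on the right they rise (r = 0.65), and the libraries numbered 4 in co-culture lie to the right.

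Among the other zinc transporters some were higher and some lower. Of 21 listed genes 14 were tested: 7 were higher, 3 lower and 4 did not pass in the mean of the 8 co-cultures against mono-culture, with a median log2 difference of 0.17, against 0.01 over all genes, of which 52.7% were called (26.1% higher and 26.6% lower). Slc39a1 (ZIP1), an importer at the cell surface, went from 136 ± 8.55 CPM (SD, n = 4) to line means of 158 to 219 CPM (log2 0.52, edgeR adjusted p = 5.8e-07, higher in 32 of 32 libraries). Slc30a4 (ZnT4), which loads vesicles with zinc, was also higher, from 129 ± 3.78 CPM (SD, n = 4) to between 102 CPM with clone M and 279 CPM with KPC1 (log2 0.47, adjusted p = 0.00095). Slc39a3 (log2 -0.55, adjusted p = 1e-07), Slc39a8 (-0.53, 2.5e-05) and Slc39a11 (-0.46, 0.00019) were lower. Slc39a3 and Slc39a8 were each under the mono-culture range in 30 of 32 libraries.

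Slc39a4, the importer of the intestine, was called higher but stood at 0.0442 ± 0.0321 CPM in mono-culture (SD, n = 4), with line means of at most 1.64 CPM, so its fold change rests on few reads. The other genes called higher were Slc30a7, Slc30a9, Slc39a7 and Slc39a13, with log2 differences of 0.23 to 0.35. Slc39a6 (ZIP6), the closest relative of Slc39a10, had a log2 difference of 0.10 (SE 0.067, adjusted p = 0.20). By line, 2 of the 14 were called with clones K and M each, beside 19.1% and 23% of all genes. With clone E 6 were called, beside 32%, and with KPC1 8, beside 59%. With each of clones N, T, H and V 9 were called, beside 39% to 58.3% of all genes. Among the 8 co-cultures 8 of the 14 differed, where 72% of all genes did.

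**Figure D5:**
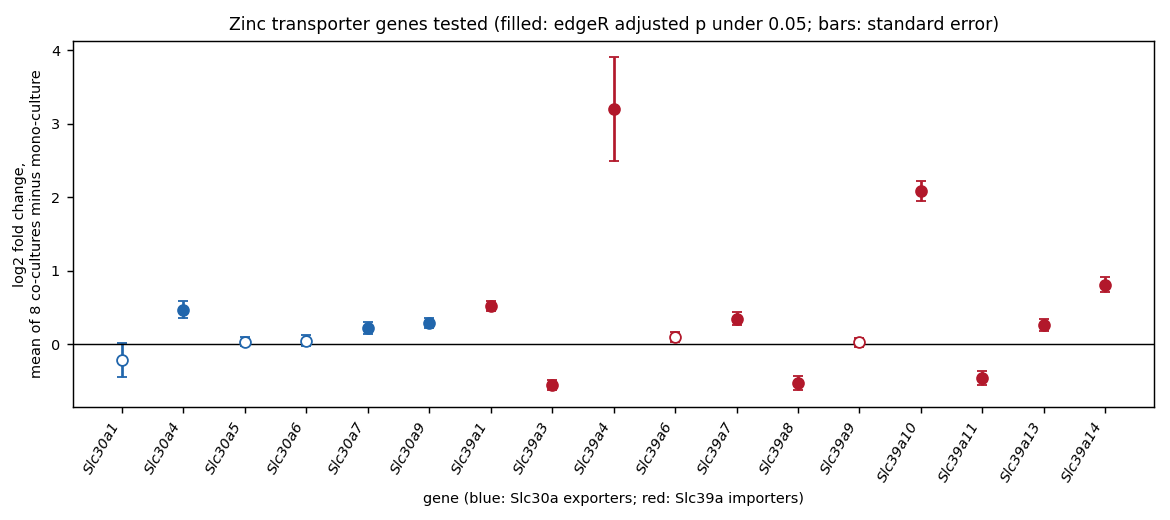
Log2 fold change of the mean of the 8 co-cultures against mono-culture for the 17 tested genes of the zinc transporter families, Slc30a in blue and Slc39a in red. Points are fitted values and bars standard errors, filled where the edgeR adjusted p was under 0.05. Slc39a10 stood at 2.09 and Slc39a14 at 0.82, and the wide bar of Slc39a4 (3.19) belongs to a gene near 0 CPM in mono-culture.

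Genes for other metals were looked at next, since metallothioneins bind copper and Slc39a14 carries iron. Of 11 copper genes 1 was higher, 3 were lower and 7 did not pass (median log2 difference -0.07), beside 26.1% of all genes higher and 26.6% lower. Atp7a, a copper pump, was higher (0.47, edgeR adjusted p = 3.7e-05). Slc31a2, a copper channel of internal membranes, was lower (-0.76, 3.7e-06), and so was Sod1, copper-zinc superoxide dismutase (-0.56, 1.4e-06, below mono-culture in 32 of 32 libraries). Cox17, a copper chaperone of mitochondria, had a value of 0.23 (adjusted p = 0.33).

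Of 12 iron genes 3 were higher, 5 lower and 4 not called (median 0.09), beside 52.7% of all genes called. Slc25a37, the mitochondrial iron importer mitoferrin, was 2.84-fold higher (adjusted p = 1.9e-06). Steap3, a ferrireductase (log2 -1.30, adjusted p = 3.8e-10), and Fth1, the ferritin heavy chain (-0.84, 2.7e-10), were lower in 32 of 32 libraries. The ferritin genes have many near-identical copies, so their counts are uncertain. Slc40a1, the iron exporter ferroportin, had a log2 difference of 0.47 (adjusted p = 0.071), which was 0.63 (0.038) without mono-culture replicate 1, 0.24 without mono-culture replicate 4 and 0.22 without the 9 libraries numbered 4. Its adjusted p was 0.049 without KPC1 replicate 1 and 0.044 without clone V replicate 1, and without the latter 5 iron genes were called higher.

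Glucocorticoid-responsive genes were listed because metallothionein genes belong to that response. Of 11 tested, 7 were higher, 2 lower and 2 not called, with a median of 0.49. Over all genes 26.1% were higher and 26.6% lower, with a median of 0.01. Klf9 was 3.59-fold higher (adjusted p = 2.1e-13, higher in 32 of 32 libraries). Hsd11b1, the enzyme that regenerates active glucocorticoid, went from 0.307 ± 0.329 CPM (SD, n = 4) to line means of 0.696 to 10.2 CPM (log2 2.96, adjusted p = 0.00074), a difference of 3.87 without mono-culture replicate 1, 2.64 without mono-culture replicate 3 and 1.17 with limma on log2(RPKM + 1). Cebpd, a transcription factor, was lower (-0.62, 0.011), though with clone N its mean of 93.2 CPM lay above the 54.7 ± 1.86 CPM of mono-culture (SD, n = 4). Pdk4, a kinase that restrains pyruvate dehydrogenase, was lower (-0.45, 0.0014). No agent of this kind is named in the labels.

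The genes whose profiles over the 36 libraries were most like each member were ranked by Pearson's r of log2 CPM, as a description. Mono-culture was included, so a high r can reflect the gap between mono-culture and co-culture alone. For Mt2 these are also the values by which it was chosen. For Slc39a10 they were Etv4 (0.966), Prkg2 (0.955) and Ptpn12 (0.949). Etv4, an ETS-family transcription factor, averaged 7.17 CPM in mono-culture and 69.6 CPM in co-culture. For Slc39a14 they were Abcb1a (0.956), Abcb1b (0.939) and Frrs1 (0.938). Abcb1a and Abcb1b encode related drug efflux pumps, and whether reads were shared between them was not examined. For Mt1 the genes were Gnpda1 (0.904), Rnaseh2b (0.897) and Ostm1 (0.896). For Mt2 they were Mt1 (0.870), Cdkn1c (0.820) and Tceal8 (0.814). The best matches were weaker for Slc30a1, with Rdh14 (0.780), Pknox1 (0.743) and Vangl2 (0.738), and for Mtf1, with Gxylt1 (0.674), Sprtn (0.654) and Casp8ap2 (0.652).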

How the data were processed

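The 36 strand-specific fibroblast libraries started from 200 ng of RNA, were amplified for 14 cycles and were sequenced as 76-base paired ends. The authors deposited whole-number counts per gene, unscaled, and RPKM values of 37746 genes. The submitters' processing notes name STAR, featureCounts, edgeR and mm10, with no versions or settings. The annotation and the use of strand in counting are not given in the sources used here.

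Counts were fitted with edgeR 4.0.16 in R 4.3.3 (filterByExpr, TMM, robust quasi-likelihood fit, 1 coefficient per group), with Benjamini-Hochberg adjustment over 14439 genes and a threshold of 0.05. CPM were TMM-scaled, with a prior count of 1 on the log2 scale. RPKM were used for levels between genes. Alternatives were DESeq2 1.42.0, RLE or no scaling, other filters, a block for replicate number, a threshold of 0.1, limma 3.58.1 on log2(RPKM + 1) or log2(RPKM + 0.1), smaller fits and leaving out each library. The procedure was also run on simulated counts with 200 genes changed in 1 group and no other difference. These data hold many differences among lines, so that run is not used as support.

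The members, lists, markers and tests were chosen with earlier results of these data known. Of each list, the 2 highest and 2 lowest tested genes with a mean of at least 2 CPM are named, with other zinc transporters named for their role. For likeness, 3 genes per member are named. Slc30a7, Slc30a9, Slc39a7 and Slc39a13 were named after their values were seen. Replicates of a group differed beyond sampling noise (smallest chi-square per degree of freedom 5.84), so none were merged. Positions are from GENCODE vM21 and upstream windows from RefSeq, whose table held 5 of the 6 genes.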

Additional observations from a re-analysis of the deposited data

Results flagged for a closer look

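Of 54 sets of 4 libraries (6 genes in 9 groups), 3 held a library whose gap to its neighbour, as a share of the range of the set, was above Dixon's 95% critical value for 4 values. Chance gives about 1 in 20. They were Mt2 in clone E replicate 4 (0.944, 5.55 CPM against 1.10 to 1.35 in the others), Mt2 in clone V replicate 4 (0.921, 4.485 CPM against 0.385 to 0.708) and Slc39a14 in clone K replicate 3 (0.884, 51.1 CPM against 43.4 to 44.3). Both Mt2 libraries were numbered 4 and also had the highest Mt1 of their line, at 100.5 and 76.7 CPM.

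The difference from mono-culture varied with the tumour line for both importers (edgeR F-test among the 8 co-cultures, adjusted p = 1e-07 for Slc39a10 and 3.3e-08 for Slc39a14), where 72% of all genes also passed. Slc39a10 was 2.64-fold to 5.53-fold higher, and above mono-culture in 32 of 32 libraries. Slc39a14 was 1.68-fold to 2.41-fold higher with 6 lines, while the ratio was 1.09 with clone K and 1.22 with clone M, which did not pass.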

How the results depend on the processing

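Of 6915 values recomputed under 11 alternatives and with each of 36 libraries left out, 6745 were counted as kept. A tested value was kept if it stayed on its side of the threshold, and no called value changed sign. Values not called in either fit could change sign, as Slc30a1 with KPC1 did (0.20, and -0.24 without KPC1 replicate 2). A count of calls was kept within a set ratio. Mt2 against mono-culture was kept if it held its sign and moved by less than the SD of its libraries. The calls against mono-culture numbered 22 to 24 of 40 under the alternatives and 22 with any library left out. Among the 8 co-cultures 2 of the 6 genes passed, beside 72% of all genes, a share counted in the main fit alone. With DESeq2 4 of the 6 passed. Without the 9 libraries numbered 4, an alternative chosen after seeing the data, 5 passed. With any library left out the number was 2 to 3. The cause was not tested.

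The replicate numbers were not taken to pair the libraries, since the labels give no shared source. Sample titles count through the co-cultures of replicate 1, then through those of each later number, and end with mono-culture. Deviations of same-numbered libraries of 2 co-cultures had a median correlation of 0.143, from -0.519 to 0.693 (63 of 112 over 0.1). For different numbers the median was -0.044 (89 of 336 over 0.1). Between co-culture and mono-culture the median was -0.023 for the same number (5 of 32 over 0.1) and 0.012 for different numbers (20 of 96). With the replicate number as a block 4 genes passed among the co-cultures (Mt1 at 0.026 and Mt2 at 0.046 were added) and 22 of 40 against mono-culture. In the co-cultures 23 of 32 libraries were closest to another of their own number. This is a hint from the data, since the labels do not say what such libraries shared.

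Slc30a1 with clone V passed without scaling beyond library size (-0.74, adjusted p = 0.046) and with limma (0.046 and 0.030). Leaving out scaling moved the median of all genes by at most -0.095 and the share of higher calls in the mean contrast from 49.6% to 40.9%. Low counts limited Mt2 most, since its co-culture libraries held 4 to 87 counts.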
